A study of Mus musculus with 13 samples.

Results

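A group of 100 protein-coding genes was examined whose transcript levels in mouse oocytes, over both doses together, were on average lower at 4 and 6 h after γ-irradiation than at 0 and 1 h. To find them, TPM values (the level of a transcript per unit of length, scaled to the same total in every library) were summed per gene, and the protein-coding genes with a TPM of 1 or more in all 6 libraries of 0 and 1 h were kept. The 100 genes were chosen by the ratio of the lowest TPM of the 6 early libraries to the highest TPM of the 5 libraries of 4 and 6 h, with 0.5 added to both, as the 100 highest of the 9918 genes that met this level. The series holds 21885 protein-coding genes and 49585 genes in all. The fall from the early to the late libraries is thus what selected these genes, and it is given below as a description without a test.

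Oocytes were taken by trypsin digestion from ovaries of female CD-1 mice of postnatal day 5 (P5), which had been kept in culture overnight. Ovaries had received 0.5 Gy (8 libraries) or 0.2 Gy (5 libraries), and all 0 h samples of a dose carry the label of that dose, while the study describes 0 h as the time before irradiation. At 0.5 Gy there were 2 libraries each at 0, 1 and 4 h, replicate 1 of the first and replicate 2 of the second generation, and 1 library each at 2.5 and 6 h of the second generation. At 0.2 Gy each time point had 1 library of the third generation, so that dose and generation cannot be told apart. The study's methods name 4 ovaries for each time point, without saying how many animals or libraries these cover. What a generation stands for is not said in the labels, so the p-values below measure only the spread between these libraries. The 0 and 1 h libraries are different time points and not replicates of a condition.

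At P5 most oocytes of the mouse lie in primordial follicles, arrested in the first meiotic prophase. Irradiation activates TAp63α, a p53 family transcription factor that mainly raises the levels of its target genes. A transcript level falls when synthesis drops below decay, and decay is known to depend on elements of the 3′ untranslated region (UTR), such as AU-rich elements bound by the ZFP36 proteins and sites of the Pumilio proteins. In a bulk sample, fewer cells of a type and less RNA per cell cannot be told apart.

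The libraries held between 15709549 and 30430104 estimated reads, the fewest in replicate 2 of 0 h at 0.5 Gy. The 0 and 1 h libraries of 0.2 Gy had 103132 and 103483 transcripts above 0, against 85144 to 95069 in the other 11 libraries. The 61 oocyte genes, such as Dppa3, Padi6 and Zp2, summed to between 5183 and 6504 TPM early and between 5174 and 6653 TPM late. Of these, 45 met the level and none was among the 100, which make up 1.01% of the genes that met it. Granulocyte markers (8 genes, among them Ltf and S100a8) summed to between 8.85 and 550 TPM early and between 9.14 and 17.4 TPM late, with the highest sum in replicate 2 of 0 h at 0.5 Gy. All 8 were lower late on average, and none was at 0 in every library. Only 2 of the 8 met the level, and neither was among the 100. Pregranulosa and granulosa markers (17 genes) summed to between 719 and 1058 TPM early and to between 821 and 1131 TPM late. Of 12 macrophage and leukocyte markers 10 were lower late on average, with sums of 23.6 to 45.5 TPM early and 19.6 to 41.4 late. The 5 of them that met the level had a median late-minus-early difference of -0.01 on the log2(TPM + 0.5) scale. Lst1, a leukocyte gene outside this list, is among the 100. Of 9 smooth muscle and pericyte markers 8 were lower late, with 32.5 to 64.1 TPM early and 25.5 to 44.8 late. The 5 of these that met the level had a median difference of -0.17. Red blood cell markers summed to 3076 to 4665 TPM early and 3708 to 8219 late, with 1 of 6 lower. The stroma, endothelium and surface epithelium lists overlapped as well, with 8 of 14, 5 of 9 and 2 of 8 genes lower late. The part of other cells in the levels of the 100 genes was not tested.

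Only the first 13 genes fell without overlap, so that every late library lay below every early one, which is 0.131% of the genes that met the level. In the other direction 49 genes, or 0.494%, rose without overlap. The remaining 87 of the 100 genes overlapped between the early and the late libraries, and the ratio ran from 1.35 at rank 1 through 0.996 at rank 14 to 0.884 at rank 100. The name of falling genes thus holds strictly for 13 genes and for the others on average. The 13 genes were Spink10, Gm7173, Terb2, Arhgef26, Thsd7a, Dhtkd1, Nrde2, Impdh2, Ankrd29, Slc22a21, Acbd7, Samd1 and Morn2.

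**Figure D1:**
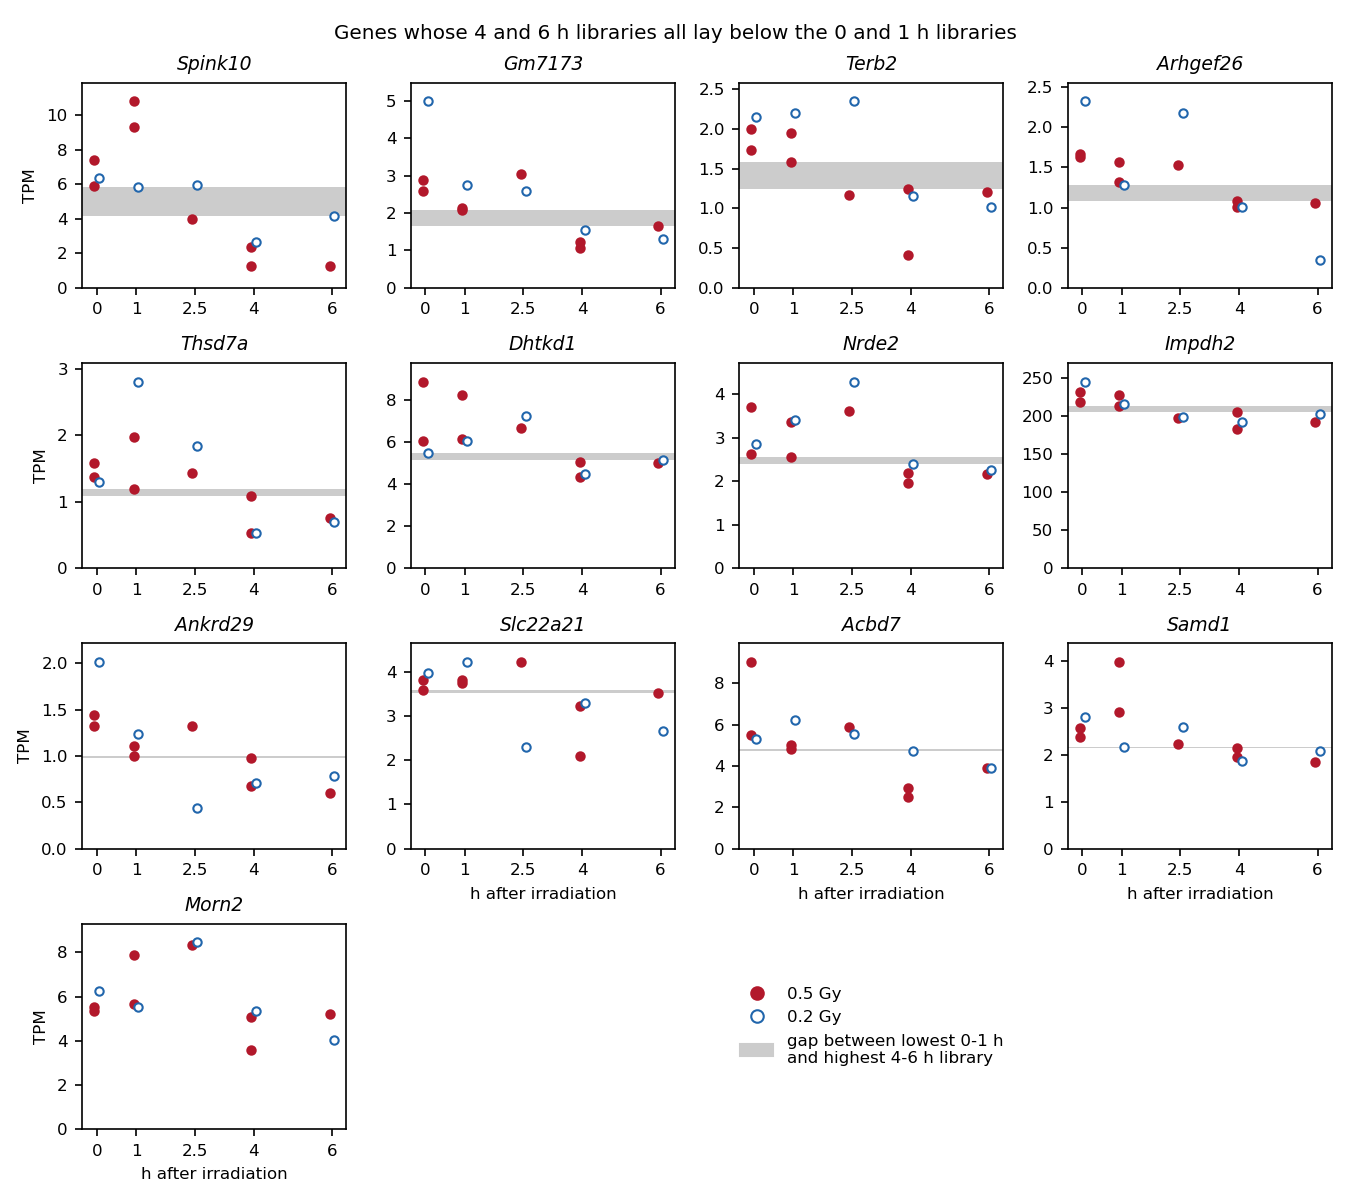
TPM (y axis, linear from 0) against hours after irradiation (x axis) for the 13 genes, 1 point per library, filled for 0.5 Gy and open for 0.2 Gy. The grey band is the gap between the lowest early and the highest late library; it is wide for Spink10 (5.81 against 4.17 TPM) and closes to nothing visible for Morn2, while the 2.5 h points lie above, in or below it.

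The promoters of these genes are shown first, as the sequence from which their transcription starts. RefSeq promoters (250 bases before to 50 after the start, GRCm38.p6) were matched for 74 of the 100 genes, and 3 of the 13 genes that fell without overlap are printed here. Impdh2 was the most abundant of the 13, Dhtkd1 held an E-box, and Nrde2 held none of the elements searched. Capitals mark the elements found on either strand, which were the TATA box TATAAA, the CCAAT box, the GC box GGGCGG, the E-box CACGTG, the CRE-like TGACGT, the TTTGAA of cell-cycle elements and the p53-family half-site.
Impdh2 promoter, chr9:108560186-108560485, plus strand: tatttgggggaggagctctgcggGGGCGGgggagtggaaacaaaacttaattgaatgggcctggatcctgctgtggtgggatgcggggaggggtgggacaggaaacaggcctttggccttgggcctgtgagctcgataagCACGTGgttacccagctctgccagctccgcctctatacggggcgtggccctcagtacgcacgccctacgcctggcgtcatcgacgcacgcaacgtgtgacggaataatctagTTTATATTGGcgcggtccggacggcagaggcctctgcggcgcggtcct
Dhtkd1 promoter, chr2:5942743-5943042, minus strand: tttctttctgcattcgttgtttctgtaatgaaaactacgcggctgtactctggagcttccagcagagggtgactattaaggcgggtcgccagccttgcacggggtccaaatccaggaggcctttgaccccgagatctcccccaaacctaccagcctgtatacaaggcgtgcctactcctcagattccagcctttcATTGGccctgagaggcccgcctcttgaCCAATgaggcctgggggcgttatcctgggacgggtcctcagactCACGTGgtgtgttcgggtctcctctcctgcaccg
Nrde2 promoter, chr12:100159600-100159899, minus strand: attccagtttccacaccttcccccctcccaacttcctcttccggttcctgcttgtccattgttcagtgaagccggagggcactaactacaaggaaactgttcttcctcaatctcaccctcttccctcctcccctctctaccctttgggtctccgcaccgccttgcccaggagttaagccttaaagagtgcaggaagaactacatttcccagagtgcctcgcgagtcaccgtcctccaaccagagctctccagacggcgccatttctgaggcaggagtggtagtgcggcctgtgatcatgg
Impdh2 carried matches to 4 of the elements and Dhtkd1 a pair of CCAAT boxes beside its E-box. The TATAAA and CCAAT matches of Impdh2, at bases 253 and 258, overlap and lie after the start. The E-box of Dhtkd1, at base 267, also lies after the start. All are matches of sequence only, and none was tested for function. The CCAAT box was present for 45.9% of the 74 genes, against 44.4% of 7893 genes that met the level and 37.4% of all 32851 promoters. A gene was counted if any of its promoters held the element. The shares of genes and of all promoters are thus unlike measures. The GC box was found for 64.9% of the 74 genes, against 70.0% of the genes that met the level and 35.7% of all promoters. For the E-box this was 13.5% against 12.2% and 7.15%. TATAAA was found in 10.8% against 8.43% and 13.6%, TGACGT in 16.2% against 13.8% and 7.51%, and TTTGAA in 14.9% against 14.2% and 17.9%. The p53-family half-site was found for 2 of the 74 genes, or 2.70%, against 8.37% of the genes that met the level and 8.36% of all promoters.

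The nonamer form of the AU-rich element, TTATTTATT, was searched in the 3′ UTR of each gene's coding transcript with the highest mean TPM. This transcript had an annotated 3′ UTR in 89 of the 100 genes, and genes without one counted as lacking the nonamer. It was found in 5 of the 100 genes. These sites are shown because they are the sequence most closely tied to rapid decay that the annotation offers. Each line gives 29 bases of the GRCm38 transcript with the nonamer in capitals.
Terb2, chr2:122206093-122206121, plus strand: tagtttttccTTATTTATTtttgtgtctg
Sobp, chr10:43002797-43002825, minus strand: caggcgcttcTTATTTATTagagccgtgg
Erc1, chr6:119573834-119573862, minus strand: ggttaggatcTTATTTATTctcataagga
Fam174a, chr1:95334975-95335003, plus strand: aaggatgttgTTATTTATTaacatcaact
Zfp820, chr17:21817418-21817446, minus strand: tagagaattaTTATTTATTttatacatga
On this transcript the nonamer was thus present in 5.00% of the 100 genes and in 4.79% of the genes that met the level. On the longest coding transcript it was present in 7 of the 100 genes and in 7.16% of the genes that met the level. Of the 5 carriers shown, Terb2 alone fell without overlap. Sobp stood at rank 25, Erc1 at rank 73, Fam174a at rank 81 and Zfp820 at rank 100.

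Spink10, a member of the Kazal family of serine peptidase inhibitors, stood first. At 0.5 Gy the 0 h libraries had 7.39 and 5.88 TPM and the 1 h libraries 10.8 and 9.33, while those of 0.2 Gy had 6.36 and 5.81 in the same order. Late, the 4 h libraries of 0.5 Gy had 2.36 and 1.25 TPM and the 6 h library 1.24, and those of 0.2 Gy had 2.66 and 4.17. The mean was 7.59 ± 2.05 TPM early (SD, n = 6) and 2.34 ± 1.21 TPM late (SD, n = 5), a 3.25-fold difference. This was the only one of the 100 genes with a mean difference over 1 on the log2(TPM + 0.5) scale. It rests on few reads, with between 15 and 85 estimated reads per early library and between 14 and 53 per late library. A transcript of 211 bases went from a mean of 4.99 to 0.543 TPM, while another of 326 bases had means of 2.01 and 1.53 TPM. As CPM, the summed reads scaled to the library total without regard to transcript length, the libraries overlapped, with 0.958 to 2.88 early and 0.535 to 2.11 late.

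Terb2 codes for a protein of the complex that ties telomeres to the nuclear envelope in meiotic prophase. At 0.5 Gy the 0 h libraries had 1.99 and 1.74 TPM and the 1 h libraries 1.58 and 1.95, and those of 0.2 Gy had 2.16 and 2.21. The late values were 1.24 and 0.419 TPM in the 4 h libraries and 1.21 in the 6 h library of 0.5 Gy, and 1.16 and 1.01 TPM at 0.2 Gy. All late libraries were low, and replicate 2 of 4 h was the lowest. The mean went from 1.94 ± 0.241 (SD, n = 6) to 1.01 ± 0.340 TPM (SD, n = 5). Both of its transcripts were lower late, the one of 2115 bases with means of 0.788 and 0.466 TPM and the one of 448 bases with 1.15 and 0.542 TPM. Terf2, which binds the telomere repeat, stood at rank 83 with means of 4.31 ± 0.380 and 3.78 ± 0.370 TPM, and its libraries overlapped.

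Gm7173 is a predicted gene on the X chromosome. At 0.5 Gy the early libraries had 2.60 and 2.88 TPM (0 h) and 2.13 and 2.08 TPM (1 h), and the late ones 1.22 and 1.07 TPM (4 h) and 1.65 TPM (6 h). Those of 0.2 Gy had 5.00 and 2.75 TPM early and 1.56 and 1.32 TPM late. The 0 h library of 0.2 Gy stood well above the other early libraries. Acbd7, whose product carries an acyl-CoA-binding domain, had 5.47 and 9.03 TPM (0 h) and 5.02 and 4.81 TPM (1 h) early at 0.5 Gy, and 2.48 and 2.92 TPM (4 h) and 3.89 TPM (6 h) late. Its values at 0.2 Gy were 5.31 and 6.20 TPM early and 4.73 and 3.91 TPM late. Replicate 2 of 0 h was high, and the gap between the sides was small.

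Terb2, Gm7173 and Acbd7 were the 3 of the 13 genes whose CPM also did not overlap between early and late libraries, with or without TMM factors (edgeR's scaling for library composition). CPM ran from 5.30 to 7.95 early and from 2.85 to 4.98 late for Terb2. For Gm7173 they ran from 13.4 to 26.6 early and from 7.34 to 10.1 late. For Acbd7 they ran from 4.67 to 7.73 early and from 2.57 to 4.45 late. The other 10 genes overlapped on this scale. Over all 100 genes, 9 did not overlap as CPM and 3 with TMM factors added, against 0.192% and 0.0605% of the genes that met the level. The reads are those of the contrast that chose the genes, so nothing is read from these shares.

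The rest of the 13 genes differed in how much of their fall lay in the summed reads. Impdh2, which makes the first committed step towards guanine nucleotides, had 230 and 219 TPM (0 h) and 212 and 227 TPM (1 h) early at 0.5 Gy, and 245 and 215 TPM at 0.2 Gy. Late it had 205, 183 and 192 TPM at 0.5 Gy and 192 and 202 at 0.2 Gy. The values were tight on both sides, with means of 225 ± 12 (SD, n = 6) and 195 ± 9.06 TPM (SD, n = 5). On summed counts in the edgeR model its log2 difference was -0.04 with a standard error of 0.12, against -0.20 on the log2(TPM + 0.5) scale. A transcript of 274 bases held 106 TPM early and 73.8 late. Of the 30-base stretches of Impdh2, 44.0% are shared with other genes, most with its pseudogene Impdh2-ps, so its reads are uncertain.

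Dhtkd1, a mitochondrial dehydrogenase of lysine and tryptophan breakdown, had 8.85 and 6.05 TPM (0 h) and 8.23 and 6.11 TPM (1 h) early at 0.5 Gy, with 5.44 and 6.05 TPM at 0.2 Gy. Its late values were 5.02, 4.32 and 5.00 TPM at 0.5 Gy and 4.48 and 5.13 at 0.2 Gy. Its difference was -0.44 on the log2(TPM + 0.5) scale and -0.07 with a standard error of 0.16 on summed counts. Its longest transcript, of 5480 bases, had means of 1.89 and 2.03 TPM and was not lower late, while one of 663 bases had 4.02 and 2.72 TPM. Ankrd29, an ankyrin-repeat gene, had its fall in a transcript of 353 bases, which went from 0.582 to 0.0800 TPM, while one of 2675 bases had 0.475 and 0.472 TPM. Its CPM overlapped, with 3.77 to 6.54 early and 3.62 to 6.20 late.

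Arhgef26, a guanine nucleotide exchange factor, had 1.64 and 1.67 TPM (0 h) and 1.57 and 1.32 TPM (1 h) early at 0.5 Gy, and 2.33 and 1.29 TPM at 0.2 Gy. Late it had 1.00, 1.09 and 1.06 TPM at 0.5 Gy, and 1.01 and 0.343 TPM at 0.2 Gy. The 6 h library of 0.2 Gy was far below the others. On summed counts its log2 difference was -1.06 with a standard error of 0.29, larger than the -0.63 on the TPM scale. Its CPM overlapped, with 12.7 to 31.6 early and 4.46 to 14.1 late. Of the 30-base stretches of Arhgef26, 21.6% are shared with other genes, most with 9330121J05Rik, so its reads are uncertain. Thsd7a, which codes for a membrane protein with thrombospondin repeats, had 1.58, 1.37, 1.98 and 1.20 TPM early at 0.5 Gy and 1.30 and 2.81 at 0.2 Gy. Its late values were 0.524, 1.09 and 0.750 TPM at 0.5 Gy and 0.525 and 0.690 at 0.2 Gy.

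Nrde2, a factor of nuclear RNA surveillance, had early values from 2.56 to 3.70 TPM and late values from 1.97 to 2.41 TPM. Slc22a21, a carnitine transporter, went from 3.59 to 4.21 TPM early to 2.10 to 3.52 late, and 31.4% of its 30-base stretches are shared, most with Slc22a5. Samd1, which binds unmethylated CpG islands, had 2.16 to 3.97 TPM early and 1.85 to 2.13 late. Morn2, a gene of MORN repeats that overlaps Dhx57 on the other strand, had 5.34 to 7.89 TPM early and 3.59 to 5.34 late. In the last pair of genes the sides all but touched.

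The genes of ranks 14 to 25 overlapped narrowly. Manf, a secreted factor induced by stress of the endoplasmic reticulum, had 74.2 to 114 TPM early and 52.1 to 74.4 late, with means of 90.5 ± 15 and 66.1 ± 8.64 TPM. As CPM its libraries did not overlap, with 119 to 163 early and 73.6 to 117 late. Chd1, a chromatin remodeller that reads the mark of active promoters, had 2.11 to 3.76 TPM early and 1.26 to 2.14 late. Prdx3, the mitochondrial peroxiredoxin, had 44.7 to 62.2 TPM early and 41.8 to 46.8 late. Camk2d, a calcium-dependent kinase, had 42.0 to 93.2 TPM early, with the highest value in replicate 2 of 0 h, and 35.2 to 43.9 late.

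Gpt2, the mitochondrial alanine aminotransferase, had 1.48 to 2.38 TPM early and 1.20 to 1.53 late. Tbc1d7, a subunit of the TSC complex that restrains mTORC1, had 22.0 to 28.0 TPM early and 17.1 to 23.1 late. Cecr2, a bromodomain protein of chromatin remodelling, had 1.72 to 2.06 TPM early and 1.23 to 1.81 late. Rmdn1, Ank2, Sobp and 9430038I01Rik had mean falls between 0.25 and 0.40 on the log2(TPM + 0.5) scale. Lst1, a leukocyte gene, had 1.09 to 2.12 TPM early and 0.142 to 1.14 late, but with between 2 and 35 estimated reads over the early and late libraries.

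Around the last place the genes barely differed from those left out. The last genes taken were Zcchc17 with 111 to 126 TPM early and 108 to 126 late, Txnrd3 with 2.16 to 2.67 and 2.11 to 2.51, and Zfp820 with 1.66 to 4.38 and 1.32 to 1.94. The first left out were Fam173b with 6.50 to 8.64 and 5.63 to 7.42, Cst12 with 88.9 to 129 and 61.6 to 100.7, and Ybx2 with 16.9 to 23.4 and 15 to 19.2. The ratio was 0.884 on both sides of the line.

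Over all 100 genes the fall was small. The median difference of late minus early was -0.26 on the log2(TPM + 0.5) scale, or a fold of 1.23 between the means, against 0.05 for the genes that met the level. In 54 of the 100 genes the mean fell by more than 0.25, in 16 by more than 0.5 and in 1 by more than 1, against 7.30%, 1.18% and 0.171% of the genes that met the level. The rule used this contrast, so nothing is read from these shares. Among the 100, the median SD over the 6 early libraries was 0.19 on the log2 scale against 0.33 for all genes that met the level, and over the 5 late libraries it was 0.15 against 0.28. A ratio of the lowest to the highest value favours genes with little spread.

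**Figure D2:**
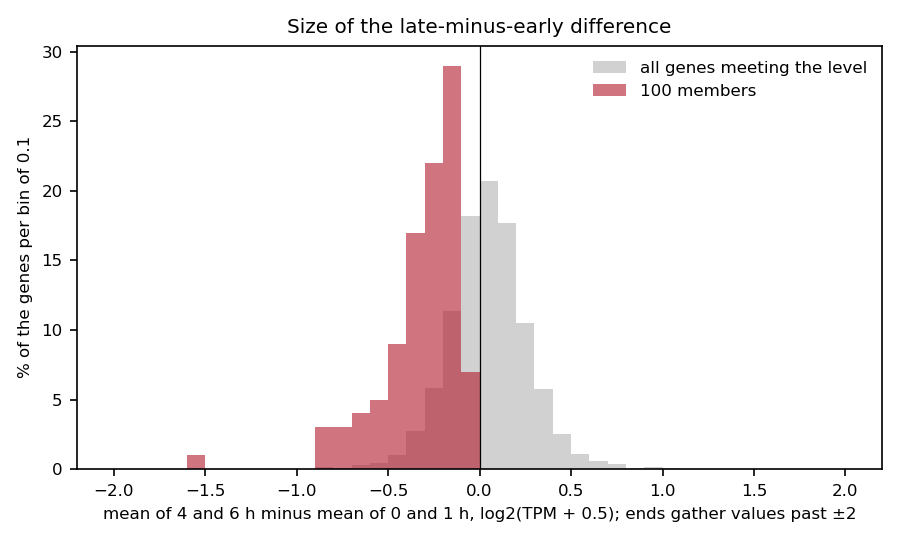
Share of genes (y axis, % per bin of 0.1) against the late-minus-early difference on the log2(TPM + 0.5) scale (x axis), for the 100 genes in red and the 9918 genes that met the level in grey. The red bars centre at -0.26 with Spink10 alone beyond -1, and the grey bars centre at 0.05.

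The size of the fall is given by level as a description, since the rule used these values. The 38 genes with a mean early TPM under 5 had a median difference of -0.31, the 35 genes from 5 to 20 TPM of -0.29, the 17 genes from 20 to 100 TPM of -0.20 and the 10 genes of 100 TPM or more of -0.13. The most abundant of the 100 genes, at 1705 TPM early and 1595 late, was Atp5j, a subunit of the mitochondrial ATP synthase. The mean number of estimated reads per library had a median of 883 over the 100 genes.

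At 0.5 Gy the median late-minus-early difference was -0.31 and 98 of the 100 genes were lower late. At 0.2 Gy it was -0.21 with 87 genes lower. In 85 of the 100 genes both doses were lower. Of the 9918 genes that met the level, 4188 were lower late at 0.5 Gy and 4420 at 0.2 Gy. The rule used these early and late values, so nothing is read from these counts. The 0.2 Gy side depended on the scaling, which moved the 100 genes and the genes that met the level together. With TPM divided by TMM factors the median of the genes that met the level moved from 0.04 to 0.21 at 0.2 Gy, that of the 100 genes from -0.21 to -0.03, and 56 of them were lower late. At 0.5 Gy the same scaling left the 100 genes at -0.35 against 0.02, with 100 genes lower. Of the genes that met the level, 2396 were lower late at 0.2 Gy under TMM and 4721 at 0.5 Gy. At 0.2 Gy the level of the 100 genes was thus near that of the early libraries under TMM. Their median was still below that of the genes that met the level, as it was in TPM. The 13 genes that fell without overlap in TPM were each lower late at both doses under both scalings. In TPM this follows from how they were defined, and the TMM values come from the same libraries, so nothing is read from it.

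To ask when the levels fell, the 2.5 h libraries were examined, which the rule had not used. At 2.5 h the 100 genes were close to their early levels in TPM. On the log2(TPM + 0.5) scale the median difference from 0 and 1 h of the same dose was -0.02 at 0.5 Gy. At 0.2 Gy it was 0.01. The genes that met the level had medians of 0.25 and 0.12, and the 100 genes lay 0.27 and 0.11 lower than these. In 55 of the 100 genes the 0.5 Gy library of 2.5 h was below the early mean, against 24.8% of the genes that met the level, and at 0.2 Gy this held for 49 genes against 34.8%. Under TMM-scaled TPM the numbers were 67 genes against 29.5% at 0.5 Gy and 27 genes against 20.2% at 0.2 Gy. The medians of the 100 genes were then -0.07 at 0.5 Gy and 0.16 at 0.2 Gy. Those of the genes that met the level were 0.19 and 0.28. How close the 100 genes stood to their early levels thus depended on the scaling. Since the early libraries were part of the rule, which favours genes with high early values, these shares were not tested.

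The 2.5 h library lay below every early library in 17 of the 100 genes at 0.5 Gy, against 4.11% of the genes that met the level, and in 27 genes at 0.2 Gy, against 6.38%. Both libraries did so in 6 genes, against 0.716%. On the log2 scale, the 2.5 h value was nearer to the late than to the early mean in 29 genes at 0.5 Gy, against 60.6% of the genes that met the level, and in 42 at 0.2 Gy, against 50.9%. The median step from 2.5 h to the late libraries was -0.27 at 0.5 Gy and -0.20 at 0.2 Gy. For the genes that met the level it was -0.19 and -0.08. The rule favours genes with high early values, low late values and little spread, so nothing is read from these shares and steps.

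**Figure D3:**
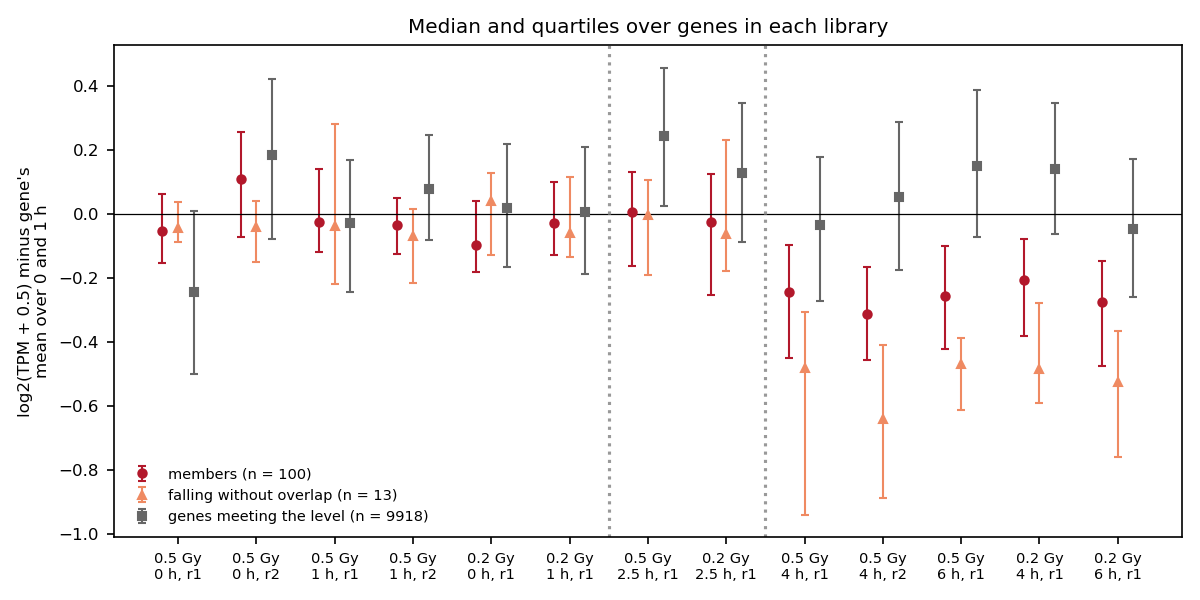
Median (points) and quartiles (bars) over genes of the log2(TPM + 0.5) value minus the gene's mean over the 6 early libraries (y axis), in each of the 13 libraries (x axis; r, replicate; dotted lines divide early, 2.5 h and late). Circles are the 100 genes, triangles the 13 that fell without overlap and squares the genes that met the level. The 100 genes sit near 0 at 2.5 h and between -0.20 and -0.31 late, while the genes that met the level vary from -0.24 to 0.24.

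Single genes differed in their course. Spink10 had 3.96 TPM at 2.5 h of 0.5 Gy, below all early libraries, and 5.93 TPM at 0.2 Gy, within them. Terb2 likewise had 1.17 TPM, in the late range, and 2.35 TPM, above the early ones. Ankrd29 and Slc22a21 went the other way, with 1.33 and 4.21 TPM at 0.5 Gy and 0.439 and 2.29 TPM at 0.2 Gy. Impdh2, with 197 and 198 TPM, was in the late range in both libraries. Morn2, with 8.36 and 8.45 TPM, was above all early libraries in both, and Nrde2 had 3.61 and 4.30 TPM, of which the second was above all of them. Gpt2, with 0.983 and 0.720 TPM, was lower at 2.5 h than in any early or late library.

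The 2.5 h libraries were compared with those of 0 and 1 h by edgeR's quasi-likelihood test on the summed counts, with dose in the model. Calls needed an adjusted p (Benjamini-Hochberg, over all 28493 genes tested) below 0.05 and a log2 fold change beyond 1 in either direction. None of the 100 genes and none of all genes (0.0%) was called. At an unadjusted p under 0.05 there were 1320 genes of all those tested, among them Gpt2 and Zfp820 of the 100, both lower, while 0.887% of the genes that met the level were lower at this p. The log2 fold change was -0.91 ± 0.28 (standard error) for Gpt2 and -0.85 ± 0.31 for Zfp820, and the adjusted p from edgeR was 0.947 for both. These 2 genes were picked after their values were seen. The fold changes of 78 of the 100 genes were below 0, against 39.9% of the genes that met the level, with medians of -0.13 and 0.06. The early libraries of this comparison are among those the rule used, and it favours genes that are high in them, so nothing is read from this share.

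Both doses were then set against each other at 2.5 h, the contrast at 2.5 h least touched by the rule, as the difference of 0.5 minus 0.2 Gy beyond that at the other times. None of the 100 genes and none of 31254 genes (0.0%) was called by edgeR, and 1031 genes had an unadjusted p under 0.05. The fold change was below 0 in 53 of the 100 genes, against 50.8% of the genes that met the level. Thsd7a at -1.21 (standard error 0.55) and Ankrd29 at 1.53 (standard error 0.67) had an unadjusted p under 0.05, with an adjusted p of 1 from edgeR. At this unadjusted p, 0.938% of the genes that met the level were lower and 1.05% were higher. With 1 library per dose at 2.5 h, this comparison could show only large differences.

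Within the early and within the late time points no change was called either, but the rule used these same libraries and favours genes with little spread on each side, so nothing is read from this. For 1 h against 0 h none of the 100 genes and none of all genes (0.0%) was called by edgeR, with 839 genes of all those tested, and none of the 100, at an unadjusted p under 0.05. The fold change was below 0 in 52 of the 100 genes, against 47.9% of the genes that met the level, with medians of -0.01 and 0.01. For 6 h against 4 h none of the 100 and none of all genes (0.0%) was called, with 964 genes and again none of the 100 at an unadjusted p under 0.05. Of the 100 genes 58 were below 0, against 55.1%, with medians of -0.04 and -0.03. The lowest late value came from a 4 h library in 53 genes and from a 6 h library in 47.

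For the contrast that chose the genes, the edgeR fit is given as a description. It called 28 genes over the whole table (0.0983%), of which 27 were higher and 1 (0.00351%), the pseudogene Rpl7a-ps11, was lower, and none was among the 100. The fold change on summed counts was below 0 in 99 of the 100 genes, against 42.2% of the genes that met the level, with a median of -0.24 against 0.04. Count and TPM differences were over 0.3 apart on the log2 scale in 7 of the 100 genes. DESeq2's Wald test passed the same limits for 45 lower genes (0.158%), of which 1, Arhgef26, was among the 100, at -1.05 ± 0.29 (standard error). Arhgef26 was chosen by this same contrast, so nothing is read from that call.

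By class, the 100 genes were spread thinly. None of the 24 immediate early genes that met the level, none of 29 signal feedback genes, of 60 cell cycle genes, of 54 genes of mRNA decay, of 44 homeobox, Sox, Fox, Gata and Pou factors, of 45 oocyte genes or of 23 p53 family targets was among them. Chromatin modifiers gave Chd1 out of 92 genes, zinc finger genes gave Zfp820 out of 313, the E3 ligase, F-box and kelch-like genes gave Rnf44 out of 227, and the kinase and phosphatase genes gave Camk2d out of 216. The 100 genes make up 1.01% of the genes that met the level. No listed class other than the p53 family targets, with a median late-minus-early difference of 0.67 and 7 genes rising without overlap, and the granulocyte markers, with 2 genes at -1.23, had a median further from 0 than 0.5.

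Nuclear genes of mitochondria were among the 100 in several places, looked up after the 100 genes were known. Of 91 genes of the respiratory chain and ATP synthase, 3 were members. These were Cox5b, a subunit of cytochrome c oxidase, with 408 ± 46.2 TPM early (SD, n = 6) and 373 ± 29.7 late (SD, n = 5), Cox7a1, of the same enzyme, with a mean of 10.4 ± 2.70 TPM late and a fall by 0.53 on the log2(TPM + 0.5) scale, and Atp5j. The median of the 91 genes was -0.02. Of 7 genes that shape the inner membrane, Apool had 20.7 ± 1.28 and 18.2 ± 2.22 TPM and Apoo 41.8 ± 6.72 and 35.7 ± 4.14. Of 74 mitochondrial ribosomal proteins, Mrps16 alone was a member.

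Of 12 subunits of the oligosaccharyltransferase, which adds sugar chains to new proteins in the endoplasmic reticulum, Ostc had 53.9 ± 8.21 and 46.0 ± 3.69 TPM, and Tmem258 had 148 ± 20.1 and 126 ± 11. Of 32 Mediator subunits, which link transcription factors to RNA polymerase II, Med26 had 1.86 ± 0.283 and 1.39 ± 0.228 TPM and Med28 had 139 ± 23.3 and 118 ± 7.91. These classes were chosen because the 100 genes held them, so the counts describe the list only.

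Of the 100 genes, 10 lie on the X chromosome, against 3.56% of the genes that met the level. Only 1 of the 13 genes that fell without overlap was among these 10. The rule favours genes with little spread and the share was not tested, so nothing is read from it. The 10 genes included Gm7173, Apool, C1galt1c1, Pin4 and Apoo, and had mean falls between 0.13 and 0.83 on the log2(TPM + 0.5) scale. Over all X-linked genes that met the level the median difference was 0.00, against 0.05 for the other genes. C1galt1c1, the chaperone of the enzyme that extends O-linked sugars, had 7.22 TPM early and 4.49 late on average, and its CPM did not overlap. Pin4 shares 58.8% and Apoo 43.5% of 30-base stretches with other genes.

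The features known to go with short transcript half-lives differed little between the 100 genes and all genes that met the level, measured on the coding transcript with the highest mean TPM. The half-lives themselves were not measured. The median 3′ UTR was 620 bases against 586, the coding part 779 against 1011 bases, the transcript 1702 against 2096 bases and the gene span 28018 against 24626 bases. Both had a median of 7 exons. The pentamer ATTTA was present in the 3′ UTR of 50% against 53.8% of the genes, with a median of 1.34 against 1.35 per kb where the 3′ UTR had 100 bases or more. The Pumilio motif TGTANATA was present in 24.0% against 19.2%, and C2H2 zinc fingers in 1.00% against 3.81%. An annotated 3′ UTR was present for 89.0% against 86.7% of the genes, and those without one counted as lacking its motifs. GC content was 48.9% against 49.8%, and GC at the third codon position was 56.5% against 58.0%. Every median of the 100 genes lay within the quartiles of the genes that met the level. Some of these differences turned with the setting. For the 100 genes chosen at a level of TPM 5 the gene span was 12468 against 20548 bases and GC at the third codon position 57.5% against 56.5%. On the longest coding transcript the pentamer stood at 1.83 against 1.44 per kb and was present in 67.0% against 68.3% of the genes.

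**Figure D4:**
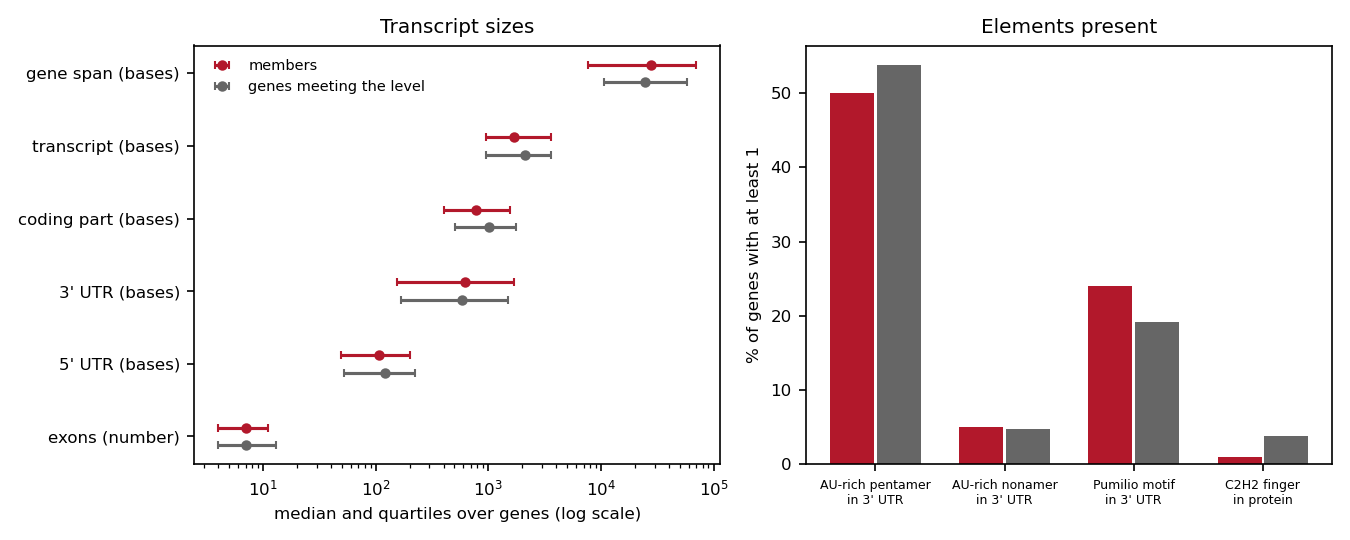
Left, median and quartiles of transcript sizes (x axis, log scale, bases or number) for the 100 genes in red and the genes that met the level in grey. Right, share of genes (y axis, %, from 0) with at least 1 element; the largest gap is that of the Pumilio motif, 24.0% against 19.2%.

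The genes at the ends of these ranges were of varied kinds. Acer3, an alkaline ceramidase, had the longest 3′ UTR, 10448 bases with 19 ATTTA pentamers. C1galt1c1 had the densest pentamers, at 10.5 per kb. Ank2, the ankyrin that anchors membrane proteins, had the longest gene span, 577739 bases, and Dnah17, an axonemal dynein heavy chain, the most exons, 81. Zfp820 alone carried C2H2 fingers, 12 of them. Over 10% of the 30-base stretches were shared with other genes in 26 of the 100 genes, and 38 overlapped a gene on the other strand, so the levels of these genes are less certain.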

How the data were processed

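The authors estimated transcript abundance with salmon on Ensembl transcripts of GRCm38, from paired-end reads of amplified oocyte RNA, and deposited estimated counts and TPM for 130740 transcripts in each of 13 libraries, neither scaled between libraries nor filtered. The labels name DESeq2 1.24.0; the deposited comparisons and merged counts were not used. Here TPM and estimated counts were summed per GENCODE gene (402 transcripts had no gene, at most 0.495% of the reads) and counts were rounded. Tests used edgeR 4.0.16 (quasi-likelihood, TMM, filterByExpr) with dose and 5 time points in 1 model of 13 libraries; alternatives used DESeq2 1.42.0 and limma 3.58.1 in R 4.3.3. Scripts ran in Python with pandas and were tested on simulated data. Read totals limit precision, and PCR reads without molecular identifiers are not independent molecules. Genes were named by rank (first 25, ranks 98 to 103), by membership of a list, or by a feature's 3 highest values; others are named as class members, apart from a single gene that is left unnamed. The 100 genes and all lists were chosen with earlier results of these data known. Replicate differences between the generations correlated at 0.130 (0 and 1 h), 0.0784 (0 and 4 h) and 0.109 (1 and 4 h), so the generation was not taken as pairing. 3 reads are compatible with a count of 0.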

Additional observations from a re-analysis of the deposited data

How the results depend on the processing

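The list depends on its scale and on single libraries. Of the 100 genes, a level of TPM 5 kept 55 and TMM-scaled TPM 50, with 4 and 7 genes falling without overlap; leaving out 1 library of 0, 1, 4 or 6 h kept 41 to 74 of them, and 17 to 42 genes then fell without overlap, a criterion that is easier to meet with fewer libraries (42 without the 4 h library of 0.2 Gy and 38 without replicate 1 of 0 h). With a pseudocount of 0.1 or 1, 91 and 93 were kept. On CPM with TMM factors, added after seeing the data like CPM without them, 3 of the 100 genes did not overlap (0.0605% of the genes that met the level). The 2.5 h library of 0.2 Gy was below every early library in 16 genes under TMM-scaled TPM, and without 1 library in 19 to 46, with 13 to 38 at 0.5 Gy.

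None of the 100 genes was called in any comparison under any alternative, except Arhgef26 by DESeq2 late against early (1 gene). Late against early is the contrast that chose the genes, so nothing is read from that call. Over all genes DESeq2 called 10 (1 h against 0 h), 21 (6 h against 4 h), 43 (2.5 h), 169 (4 and 6 h) and 28 (dose difference); limma on log2(TPM + 0.5) called 1 (6 h against 4 h), 2, 6 and 6 in the last 3; no filter gave 1, 11, 64 and 1 in the same order. Leaving out 1 library gave 0 to 2 (6 h against 4 h), 0 to 1 (2.5 h) and 9 to 35 (4 and 6 h, 9 without the 6 h library of 0.5 Gy). With the generation as a replicate block 24 genes were called late against early and 1 in the dose difference; with 1 and 4 h exchanged, 24 and 0. No other call changed with the block. The causes were not tested.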

Other observations

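The ratio of extreme values left out genes whose mean fell further but whose libraries overlapped. Of 17 genes that met the level and were lower late by over 1 on the log2(TPM + 0.5) scale, 16 were not among the 100. The largest difference was that of Cisd3, an iron-sulfur protein of mitochondria, at -2.80, with 5.93 to 3021 TPM early and 6.35 to 25.2 late and the highest value in the 0 h library of 0.2 Gy. Ltf, which codes for the granulocyte protein lactoferrin, had 2.43 to 203 TPM early, highest in replicate 2 of 0 h at 0.5 Gy, and 0.296 to 9.10 late. Without the highest early library, 8 of the 16 genes kept a difference over 1. In 6 of the 16 the highest early library was replicate 2 of 0 h at 0.5 Gy, and in 6 it was a 0 or 1 h library of 0.2 Gy. These genes were picked after their values were seen.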
